A study of Mus musculus with 4 samples.

Results

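Inherited variants near a set of 10 genes change the risk of Alzheimer disease, and microglia are held to express all of them. In mouse they are Bin1, Picalm, Clu, Abca7, Sorl1, Ptk2b, Abi3, Inpp5d, Plcg2 and Rin3. The genes were chosen by name, with earlier results of these data known, and all 10 were found among the 55471 genes of the count table. All 10 reached 1 CPM (counts scaled to a library of 1000000) in every library and all 10 were among the 14112 genes with enough counts for a test. The cells were CD11b-positive cells taken from brain with magnetic beads, CD11b being an integrin chain that marks microglia and other myeloid cells. There was 1 group of 4 libraries, all from mice of 10 to 13 weeks that had received PLX5622 for 7 days and had then gone 10 days without it, 17 days in all. PLX5622 inhibits CSF1R, a receptor kinase that microglia need to survive, and microglia return to the brain once the drug is withdrawn. The sources used here do not give the strain, sex or any allele of the mice. An untreated group was not analysed here, so the text gives levels and their spread between libraries and cannot say what the drug did.

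Microglia take up lipoproteins, debris and amyloid through surface receptors such as TREM2, and most of these 10 genes act on that route. BIN1, PICALM and RIN3 shape or regulate clathrin-coated pits and early endosomes. SORL1 sorts cargo between endosomes and the Golgi, ABCA7 moves lipids across membranes, and clusterin, the product of Clu, is a secreted lipid-carrying chaperone. INPP5D, PLCG2, PTK2B and ABI3 act inside the cell, between activated receptors, phosphoinositide lipids, calcium and the actin skeleton.

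Promoters of 4 genes are printed because their transcripts did not all have the same highest and lowest library, as described further on. None of the 4 passed the test of spread used below. Inpp5d, Plcg2 and Sorl1 had their lowest value in library 1 and their highest in library 3, and Picalm had its highest in library 1, on libraries scaled to all genes and with the exceptions given there. The sequences are from RefSeq on GRCm38.p6 and hold the 250 bases before the transcription start, in the direction of transcription. They are chr1:87620062-87620311 on the plus strand for Inpp5d, chr8:117498025-117498274 on the plus strand for Plcg2, chr9:42124298-42124547 on the minus strand for Sorl1 and chr7:90129963-90130212 on the plus strand for Picalm. Capitals mark matches on either strand to GAGGAAGT, a core of the site of PU.1, to the E-box CACGTG, or to the GC box GGGCGG, whose match on the other strand reads CCGCCC.
Inpp5d: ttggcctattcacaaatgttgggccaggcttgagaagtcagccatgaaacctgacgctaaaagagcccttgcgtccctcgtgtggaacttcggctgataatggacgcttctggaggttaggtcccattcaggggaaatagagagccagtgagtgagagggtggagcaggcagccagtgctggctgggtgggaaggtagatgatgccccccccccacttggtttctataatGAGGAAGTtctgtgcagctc
Plcg2: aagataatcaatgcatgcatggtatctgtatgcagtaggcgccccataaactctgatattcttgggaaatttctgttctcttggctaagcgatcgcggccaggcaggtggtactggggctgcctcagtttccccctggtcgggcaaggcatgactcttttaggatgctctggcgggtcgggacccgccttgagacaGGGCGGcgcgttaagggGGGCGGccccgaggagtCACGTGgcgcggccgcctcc
Sorl1: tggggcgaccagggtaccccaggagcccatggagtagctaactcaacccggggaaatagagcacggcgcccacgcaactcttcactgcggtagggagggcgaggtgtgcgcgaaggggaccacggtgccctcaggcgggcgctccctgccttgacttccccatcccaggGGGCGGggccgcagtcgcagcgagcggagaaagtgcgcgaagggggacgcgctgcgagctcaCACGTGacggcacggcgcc
Picalm: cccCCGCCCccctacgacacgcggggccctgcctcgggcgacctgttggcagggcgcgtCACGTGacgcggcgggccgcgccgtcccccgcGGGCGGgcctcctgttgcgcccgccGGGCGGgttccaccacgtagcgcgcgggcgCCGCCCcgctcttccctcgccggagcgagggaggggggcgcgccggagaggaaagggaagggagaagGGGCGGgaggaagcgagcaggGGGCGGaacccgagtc

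The Inpp5d promoter held the PU.1 letters from 20 to 13 bases before the start. Letters of this kind stood in 2.44% of 32851 mouse promoters of the same length. The E-box stood from 20 to 15 bases before the start of Plcg2, from 19 to 14 bases before that of Sorl1, and from 191 to 186 bases before that of Picalm. It was present in 6.02% of all promoters. The Picalm promoter held 6 GC boxes, with 2 in that of Plcg2 and 1 in that of Sorl1, against a share of 32.7% of all promoters with at least 1. Promoters of 6 of the 10 genes were read. Abca7 and Rin3 also had GC boxes, and Abca7 had a pair of CCAAT boxes, a motif found in 33.8% of promoters. A second Sorl1 promoter held none of the motifs searched, and TATAAA, in 12.4% of promoters, was in none of the 8. These matches describe letters and not binding, and the motifs were chosen after the promoters had been read. No promoter of Bin1, Clu, Ptk2b or Abi3 was read here.

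Total counts were between 23036202 and 24487418, and 3 counts, the floor used here, came to between 0.119 and 0.132 CPM. The lowest count of any of the 10 genes in any library was 1445, for Sorl1, so counting error was at most 2.63% of a value and lay well under the spread between libraries. The markers of homeostatic microglia were abundant in all 4 libraries, with a summed level of 44307 to 53578 CPM over 18 genes, and none of the 18 was called by the test of spread used below. A list of 10 ependymal and choroid plexus genes summed to 16147, 16107, 3357 and 22477 CPM in libraries 1 to 4, so the preparations also held RNA of that tissue. The labels do not say whether the libraries came from separate animals, and differences between them could therefore be technical in origin. The test of spread set each gene against a dispersion trend fitted to these same libraries. A gene that passed varied more than that trend, and a large p-value does not say that the libraries were alike. In bulk RNA, fewer cells of a type and less RNA per cell cannot be told apart.

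The genes that act at clathrin-coated pits and early endosomes come first. Bin1 (ENSMUSG00000024381, GRCm38 chr18:32377230-32435737, plus strand), which encodes a membrane-bending BAR-domain protein, had 1069, 841, 982 and 811 CPM in libraries 1 to 4. Libraries 1 and 3 were the high pair, and the highest was 1.32 times the lowest. Per length, as CPM per 1000 bases of merged exons (RPKM), its level of 225 ± 29.4 RPKM (SD, n = 4) was above that of 99.1% of the tested genes and was the highest of the 10 genes. Its relative Bin2, which is expressed in blood cells, had 139 ± 33.4 RPKM and was lower than Bin1 in 4 of 4 libraries, and Amph, the neuronal relative, had 0.165 RPKM.

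Picalm (ENSMUSG00000039361, chr7:90130213-90213465, plus strand) encodes an adaptor that gathers clathrin and cargo at the plasma membrane. It had 1335, 1198, 1173 and 1061 CPM, the highest mean CPM of the 10 genes at 1192 ± 113, and its libraries lay within 1.26 times of each other. Library 1 was the highest and library 4 the lowest. Its merged exons are long, 15732 bases over 15 transcripts, so its level per length was 75.8 ± 7.16 RPKM, in the middle of the 10 genes. Snap91, the neuronal counterpart of Picalm, had 12.7, 16.8, 3.26 and 22.9 CPM, and its 1.52 ± 0.902 RPKM was 49.8 times lower than that of Picalm. The spread of Snap91 passed edgeR's negative binomial goodness of fit (adjusted p = 0.015), with its lowest value in library 3.

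Rin3 (ENSMUSG00000044456, chr12:102283048-102390855, plus strand) encodes an exchange factor that activates the early-endosome GTPase RAB5. Its values of 91.6, 111, 112 and 100.4 CPM were the most even of the 10 genes, with a highest-to-lowest ratio of 1.22. Library 1 was the lowest, and libraries 2 and 3 were close together. At 15.2 ± 1.41 RPKM it lay below its relative Rin2, which had 30.5 ± 4.38 RPKM and was higher than Rin3 in all 4 libraries, and above Rin1, at 0.410 RPKM.

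The lipid-carrying and sorting genes held the gene whose libraries differed most. Clu (ENSMUSG00000022037, chr14:65968483-65981547, plus strand) had 368, 337, 81.4 and 452 CPM in libraries 1 to 4. Library 3 stood far below the other three, and the highest library was 5.56 times the lowest. Its mean was 90.1 ± 46.5 RPKM, with 23.7 RPKM in library 3 and 98.2 to 132 RPKM in the others. Clu was the only 1 of the 10 genes whose spread passed edgeR's goodness of fit (adjusted p = 5.95e-07), against 463 of the 14112 tested genes, 3.28%. At an unadjusted p under 0.05 the count was 2, Clu and Sorl1. Without library 3 Clu was not called (adjusted p = 1.00), where 0.716% of the genes tested in the other 3 libraries were. It was not called either by the quasi-likelihood variance (adjusted p = 0.889), which called 0.00% of the tested genes, or among the dispersion outliers of DESeq2, 0.0354% of the tested genes.

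Abca7 (ENSMUSG00000035722, chr10:79996494-80015572, plus strand), an ATP-driven lipid transporter, had 69.6, 87.4, 76.1 and 86.3 CPM. Libraries 1 and 3 were the low pair, within a range of 1.26-fold. At 11.8 ± 1.26 RPKM it lay well below its relative Abca1, the cholesterol exporter that loads lipid onto apolipoproteins, which had 49.2 ± 8.49 RPKM and was higher than Abca7 in all 4 libraries. Abca2, a transporter known from myelin-forming cells, had 11.9 ± 2.90 RPKM, and Abca7 was higher than it in 2 of 4 libraries.

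Sorl1 (ENSMUSG00000049313, chr9:41964720-42124297, minus strand) encodes a sorting receptor that carries the amyloid precursor protein away from late compartments. It had 58.9, 108, 139.7 and 109.5 CPM. Library 1 was the lowest and library 3 the highest, 2.37 times apart, the widest range after Clu. Its spread reached an unadjusted p of 0.0137 in edgeR's goodness of fit and did not pass the adjustment over all genes (adjusted p = 0.228). Without library 1 its unadjusted p in the same edgeR test was 0.427. At 9.20 ± 2.95 RPKM it was the lowest of the 10 genes per length, above 65.6% of the tested genes. Sort1, another receptor with the same sorting domain, had 50.3 ± 5.98 RPKM and was higher than Sorl1 in all 4 libraries. The neuronal relatives Sorcs1, Sorcs2 and Sorcs3 had 0.0439, 0.304 and 0.00873 RPKM.

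The 4 genes that act behind receptors follow. Inpp5d (ENSMUSG00000026288, chr1:87620312-87720507, plus strand), whose promoter with the PU.1 letters is printed above, encodes SHIP1, a phosphatase that removes a phosphate from the membrane lipid made by PI3 kinase and so damps signalling. It had 931, 1158, 1249 and 1042 CPM. Library 1 was the lowest and library 3 the highest, with a ratio of 1.34. At 144 ± 18.2 RPKM it was second of the 10 genes and above 98.5% of the tested genes. Its widely expressed relative Inppl1, which encodes SHIP2, had 18.2 ± 4.15 RPKM, so Inpp5d stood 7.91 times higher.

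Plcg2 (ENSMUSG00000034330, chr8:117498291-117635142, plus strand) encodes the phospholipase that turns activation of TREM2 and related receptors into calcium and lipid messengers. It had 212.5, 289, 338 and 272 CPM, again lowest in library 1 and highest in library 3, with a ratio of 1.59. Its spread did not pass the test (edgeR, adjusted p = 1). Its mean of 64.6 ± 12.0 RPKM was 3.48 times that of Plcg1, the relative used by T cells and many other tissues, at 18.6 ± 1.97 RPKM.

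Ptk2b (ENSMUSG00000059456, chr14:66153257-66281052, minus strand) encodes PYK2, a tyrosine kinase that responds to calcium and integrins. It had 147, 206, 227 and 193 CPM, once more lowest in library 1 and highest in library 3, with a ratio of 1.54 and no call (edgeR, adjusted p = 1). At 26.1 ± 4.57 RPKM it was 18.3 times higher than Ptk2, the focal adhesion kinase of adherent tissue cells, at 1.42 ± 0.486 RPKM. Ptk2b and Clu are neighbours on chromosome 14, 171709 bases apart, and library 3 held the highest Ptk2b value and the lowest Clu value.

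Abi3 (ENSMUSG00000018381, chr11:95830074-95842476, minus strand) encodes a binding partner of the WAVE complex, which starts branched actin filaments. It had 386, 367, 353 and 306 CPM, with a ratio of 1.26, library 4 being the lowest and library 1 the highest. Its mean was 85.0 ± 8.27 RPKM, against 47.1 ± 4.27 RPKM for its relative Abi1 and 4.35 ± 0.355 RPKM for Abi2. The level of Abi3 is uncertain, because 75.8% of its exonic bases lie in exons of genes on the opposite strand and the sources used here do not give the strand setting of the counting. Those genes are Gngt2, at 110 ± 27.0 CPM, Zfp652, at 253 ± 38.9 CPM, and Phospho1, at 0.0613 CPM. For Bin1 and Sorl1 the opposite-strand overlap was 6.22% and 1.63% of exonic bases, with partners at 0.858 CPM and at 0 counts, and the other 7 genes had none.

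**Figure D1:**
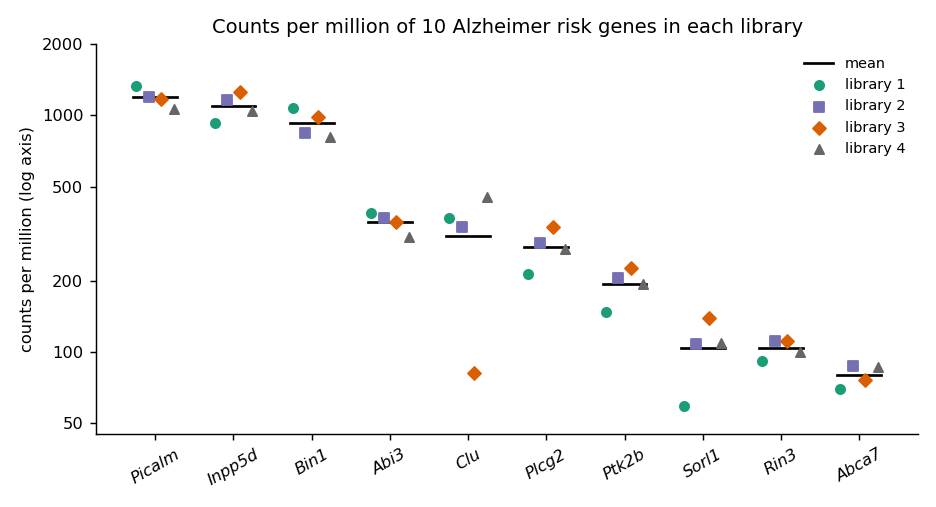
CPM (log axis) of each of the 10 genes, ordered by mean; each symbol is 1 library and the bar is the mean of the 4. Clu in library 3, at 81.4 CPM, stands below its other libraries, and Sorl1 in library 1, at 58.9 CPM, is the lowest point of the plot.

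Per length, the 10 genes ran in the order Bin1, Inpp5d, Clu, Abi3, Picalm, Plcg2, Ptk2b, Rin3, Abca7 and Sorl1. Their median was 70.2 RPKM, against 5.08 RPKM over all tested genes. Bin1 exceeded Inpp5d by 0.64 ± 0.30 on the log2 RPKM scale and Plcg2 exceeded Ptk2b by 1.31 ± 0.04 (SD, n = 4), each in 4 of 4 libraries. The order came from the means of these same libraries, so the comparison of neighbours is not an independent test of it. Of the 9 pairs of neighbours in this order, 6 kept the same direction in all 4 libraries. The exact two-sided sign-flip permutation p was 0.125 for each of these 6, the smallest that 4 libraries allow. One of these 6, Inpp5d minus Clu, had a difference of 0.92 ± 1.27 on the log2 scale, smaller than its SD. The other 3 pairs did not keep 1 direction. Clu minus Abi3 was -0.16 ± 1.16 on the log2 scale, Picalm minus Plcg2 was 0.24 ± 0.37 and Abca7 minus Sorl1 was 0.42 ± 0.46, each with 1 library against the other 3. The order depended on the length used and on library 4. Scaled to the longest transcript, Picalm passed Abi3. Scaled to the median transcript, Picalm came directly after Bin1, Inpp5d fell behind Clu, and Sorl1 passed Rin3, Plcg2, Ptk2b and Abca7. With no length scaling Picalm led, followed by Inpp5d and Bin1. Without library 4 Clu fell behind Abi3 and Picalm.

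**Figure D2:**
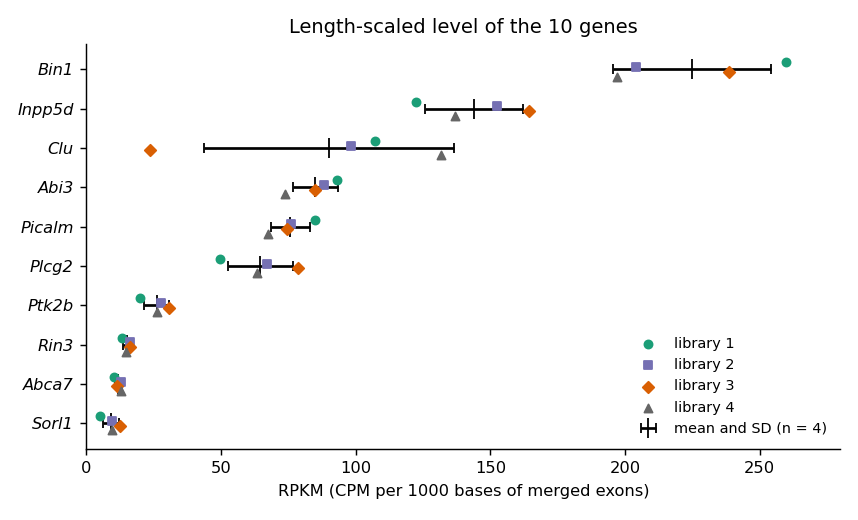
Level per 1000 bases of merged exons (RPKM) of the 10 genes from highest to lowest mean, with the 4 libraries as symbols and the mean and SD as a cross bar. Bin1 averaged 225 RPKM and Sorl1 9.20 RPKM, and the bar of Clu, 90.1 ± 46.5 RPKM, spans those of Abi3, Picalm and Plcg2.

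The level of Clu ran with the choroid plexus markers and not with the microglial ones. Per 1000 CPM of the choroid plexus list, Clu stood at 22.8, 20.95, 24.2 and 20.1 CPM in libraries 1 to 4, a range of 1.20-fold in place of 5.56-fold. Set against Ttr alone, the main transport protein made by choroid plexus, the range was 1.24-fold. Ttr made up most of the list's sum, so this range is not separate from that of the list. All 10 genes of the list were lowest in library 3 and 9 of the 10 were called, with no gene of the list at 0 in all libraries. Per 1000 CPM of the endothelial list, Clu varied 1.55-fold, and per 1000 CPM of the pericyte and smooth muscle list 1.95-fold. Those lists summed to 942, 962, 226 and 830 CPM and to 694, 661, 105 and 455 CPM, and were also lowest in library 3. In the endothelial list 9 of 10 genes were lowest there and 8 were called. In the pericyte and smooth muscle list 9 of 9 were lowest there and 6 were called. Of all tested genes, 29.2% were lowest in library 3 and 3.28% were called. No gene of either list was at 0 in all libraries.

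Astrocytes are a main source of clusterin in brain. The astrocyte list summed to 327, 243, 264 and 349 CPM, and Clu per 1000 CPM of that sum varied 4.51-fold. Slc1a3, a glutamate transporter, made up much of the sum at 147 ± 17.3 CPM and was not lowest in library 3. Of the 10 astrocyte genes, 7 were lowest in library 3 and 7 were highest in library 4, as Clu was, and 1 was called, S100b (edgeR, adjusted p = 0.00945), at 30.7, 11.7, 4.67 and 15.8 CPM. The summed lists of oligodendrocytes (947, 530, 422 and 665 CPM), monocytes (255, 336, 119 and 278 CPM), oligodendrocyte precursors (29.9, 32.6, 14.4 and 34.5 CPM) and neurons (25.3, 27.9, 17.5 and 28.9 CPM) were also lowest in library 3. Clu per 1000 CPM of these varied 2.32-fold to 3.53-fold. Against the homeostatic microglia list the range was 6.72-fold, wider than that of Clu itself. The genes nearest to Clu in pattern, by the root mean square difference of centred log2 CPM over the 4 libraries among 9307 genes of at least 10 CPM, were Col9a3 at 0.030, Sulf1 at 0.040 and Krt18 at 0.043. Col9a3 had 135, 131, 30.5 and 174 CPM, and 21 genes lay within 0.1 of Clu. How much of the Clu signal came from cells other than microglia was not tested. These libraries do not show how much Clu the microglia themselves expressed.

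**Figure D3:**
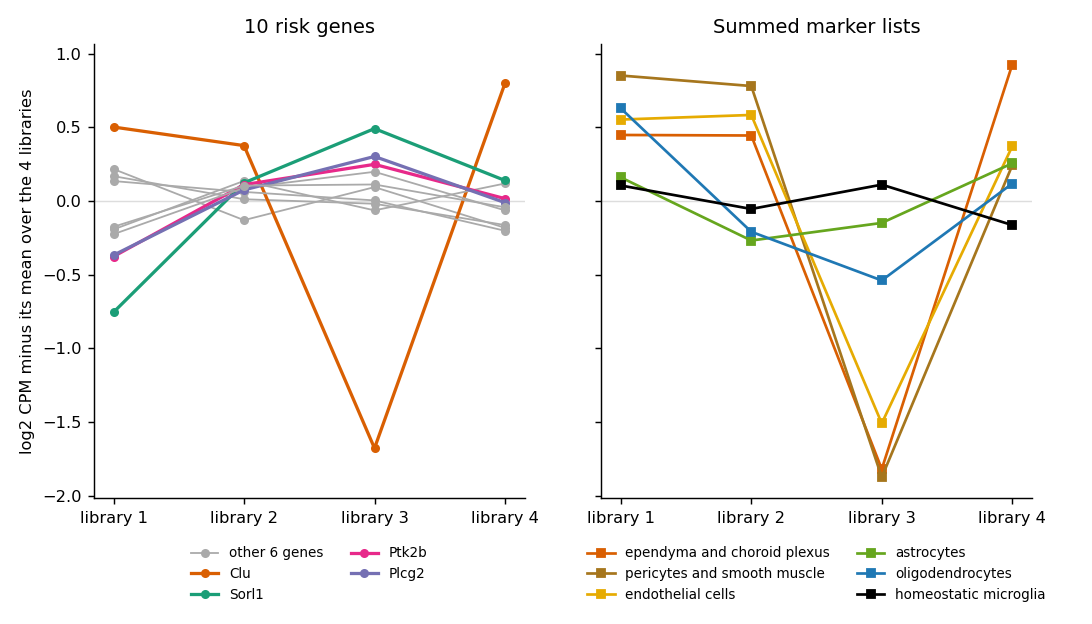
Log2 CPM of each gene (left) and log2 of the summed CPM of each marker list (right) in libraries 1 to 4, each less its own mean over the libraries. Clu is lowest in library 3, as the choroid plexus, pericyte, endothelial and oligodendrocyte sums are, while the homeostatic microglia sum stays between 44307 and 53578 CPM.

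Library 1 divided the other 9 genes when libraries were scaled to all genes. Sorl1, Ptk2b, Plcg2, Inpp5d, Rin3 and Abca7, 6 of the 10 genes, were lowest in library 1, where 31.0% of all tested genes were lowest. Bin1, Picalm and Abi3, 3 of the 10, were highest there, against 34.2% of all tested genes. Clu was the 1 of the 10 that was lowest in library 3, as 29.2% of tested genes were, and Picalm joined it when libraries were scaled to the homeostatic microglia genes. A highest library at least 1.5 times the lowest was found for 4 of the 10 genes, Clu, Sorl1, Plcg2 and Ptk2b, and for 44.0% of tested genes. By this measure and scaling the share of the 10 genes was not above that of all tested genes. Their median ratio was 1.33, against 1.43 over all tested genes. The 10 genes had a median of 268 CPM, against 22.2 CPM over all tested genes. Whether they were more or less variable than genes of like level was not tested. Scaled to the homeostatic microglia genes, the ratios of Abca7, Inpp5d and Rin3 rose to 0.82, 0.70 and 0.66 on the log2 scale, past 1.5 times. Those of Clu, Sorl1, Plcg2 and Ptk2b rose too, and those of Bin1, Picalm and Abi3 fell. The share of all tested genes past 1.5 times with that scaling is not given here.

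Markers of other cells also stood apart in library 1. The list of border-associated macrophages, which line the vessels and meninges and carry CD11b, summed to 1646, 1193, 1228 and 1029 CPM, with 9 of its 10 genes highest in library 1 and 5 called. Pf4 of that list had 40.02, 10.5, 9.55 and 8.30 CPM. In the oligodendrocyte list, whose sums are given above, 9 of 10 genes were highest in library 1 and 2 were called, and no gene of either list was at 0 in all libraries. Their part in the library 1 values of the 9 genes was not tested.

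The level in library 1 moved with exonic length across all genes. Over 14100 genes, which are not independent replicates, the log2 difference of library 1 from the mean of the others had a Spearman correlation of -0.36 with exonic length. Libraries 2 and 4 moved the other way, with correlations of 0.33 and 0.27, so the trend was not a trait of library 1 alone. The median difference of library 1 was 0.28 in the shortest of 5 length bins of equal size and -0.15 in the longest. Sorl1, at -1.0, and Inpp5d, at -0.30, lay below the median of that longest bin, and Picalm, at 0.23, lay above it. Plcg2, at -0.49, stood in the middle bin, whose median was 0.03, with Bin1 at 0.29 and Abi3 at 0.18. Ptk2b was at -0.50, Abca7 at -0.26 and Rin3 at -0.23, in the second longest bin, whose median was -0.06.

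With the trend on exonic length removed, Sorl1 had 63.7, 99.6, 158 and 97.5 CPM, Plcg2 had 208, 281, 373 and 259 CPM and Ptk2b had 153, 194, 252 and 178 CPM. All 3 were still lowest in library 1, also when GC content was removed with length. The other directions did not hold in this way. Inpp5d and Rin3 were no longer lowest in library 1 with length removed, nor Abca7 with length and GC content removed. Library 4 was then their lowest. With length removed, Inpp5d went from 1042 to 956 CPM in library 4, against 971 CPM in library 1. Rin3 went from 100.4 to 92.9 CPM in library 4, against 94.6 CPM in library 1. Of the 3 genes highest in library 1 only Picalm still was. Removing the length trend also raised library 3 for all 10 genes, though its Spearman correlation with exonic length was 0.02. Bin1 went from 982 to 1083 CPM in library 3 and from 1069 to 1038 CPM in library 1. Abi3 went from 353 to 389 CPM and from 386 to 376 CPM. The library 1 values of Bin1 and Abi3 after removal still lay above their library 3 values before it. These genes thus lost the highest place in library 1 only with the raised library 3 values. For the other genes the part of this shift in the changed directions was not tested. Scaling to the homeostatic microglia genes in place of all genes shifted every value by -0.27, 0.12, -0.09 and 0.24 on the log2 scale in libraries 1 to 4. With that scaling, Sorl1, Ptk2b, Plcg2, Inpp5d, Rin3 and Abca7 were all lowest in library 1, and none of the 10 was highest there. Bin1 and Abi3 then were lowest there too, Bin1 at 887, 911, 922 and 961 CPM.

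**Figure D4:**
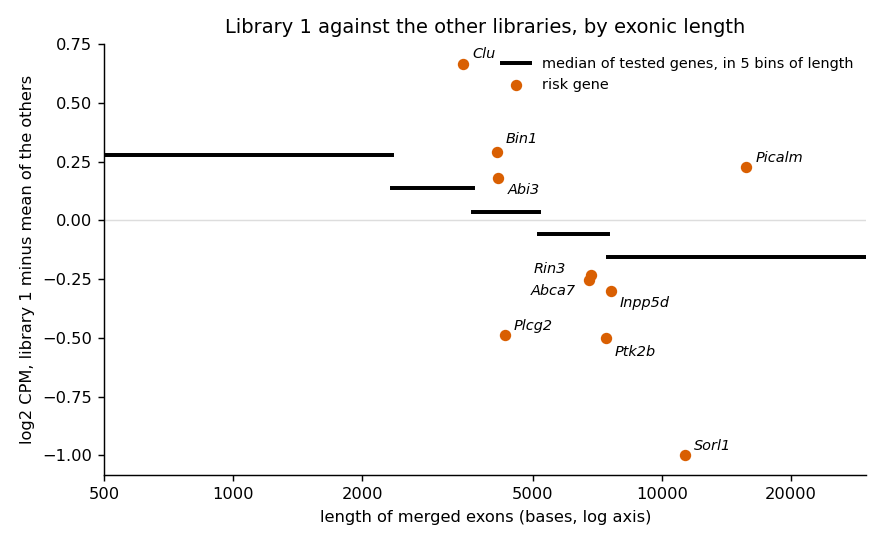
Log2 CPM of library 1 minus the mean of the other libraries (vertical axis) against the length of merged exons in bases (log axis) for the 10 genes, with black bars for the median of the tested genes in each of 5 bins of length. The medians run from 0.28 to -0.15, and Sorl1, at -1.0, lies farthest from the bar of its own bin.

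Sorl1, Plcg2 and Ptk2b also differed in how common their pattern was. Measured as for Clu, the nearest to Sorl1 were Dna2 at 0.020, Mov10 at 0.051 and Znfx1 at 0.052, and 33 genes lay within 0.1. For Plcg2 the nearest were Tln1, Taf15 and Pfkfb4, with 712 genes within 0.1, and for Ptk2b they were Tpr, Jak3 and Dgkz, with 923. Likeness over 4 libraries says nothing of shared control or function.

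The partners of these genes were read from lists of their pathways. Among 20 receptor signalling partners, Tyrobp, the adaptor of TREM2, had 1246 ± 232 RPKM, Trem2 200 ± 35.0 RPKM and the kinase Lyn 153 ± 16.6 RPKM, and the list's median was 38.1 RPKM. One of the 20 was called, Itpr1, the calcium channel opened by the product of phospholipase C (edgeR, adjusted p = 0.000235), with 84.5, 132, 38.7 and 155 CPM. In library 3, 13 of the 20 were highest, against 28.3% of all tested genes and 5 of the 10 risk genes. Of the 18 homeostatic microglia genes 11 were highest there too, so this was not a trait of the signalling list alone. Among 22 clathrin and early endosome partners, the clathrin chains Clta and Cltc had 182 ± 25.8 and 109 ± 6.96 RPKM, and 1 gene, Snap91, was called. Of the 14 sorting receptors and retromer genes, 12 were tested and 0 were called by edgeR's goodness of fit, also 0 at an unadjusted p under 0.05, with App at 44.7 ± 7.76 RPKM.

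Among 17 WAVE complex and adhesion partners of Abi3 and Ptk2b, Nckap1l, the WAVE subunit of blood cells, had 190 ± 16.7 RPKM. Its relative Nckap1, the subunit of other tissues, had 8.08 ± 4.02 RPKM and was the 1 called gene (edgeR, adjusted p = 0.000531). Of 12 lipoprotein and lipid transport genes, 11 were tested and 2 were called, the lipoprotein receptors Vldlr, with 21.6, 28.8, 5.86 and 43.1 CPM, and Lrp8. Apoe, the main lipoprotein of brain, had 726 ± 169 RPKM and was not called. Among 40 further genes near Alzheimer risk loci, 38 were tested and 3 were called, namely Ace (edgeR, adjusted p = 9.92e-07), Adamts1 (0.00245) and Fermt2 (0.00757). Ace, the angiotensin-converting enzyme, had 124, 194, 45.7 and 251 CPM. The highest of that list after Apoe were Grn, a lysosomal growth factor precursor, at 591 ± 127 RPKM and Ctsb, a lysosomal protease, at 500 ± 70.5 RPKM, and the list's median was 18.6 RPKM.

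In all, 8 of the 116 tested genes of these 6 lists, 6.9%, were called, against 3.28% of all tested genes, and all 8 were lowest in library 3, as Clu was. Of the 463 called genes of the whole table, 400, or 86.4%, were lowest in library 3. The called relatives stood beside uncalled counterparts with higher levels, Snap91 beside Picalm and Nckap1 beside Nckap1l. Whether the 8 genes came from cells other than microglia was not tested.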

How the data were processed

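Poly(A) RNA of brain CD11b-positive cells was sequenced in 4 libraries; per the labels' protocols, each took 300 ng of RNA and the kit keeps strand. The authors deposited raw counts per Ensembl gene. The submitters' processing notes name STAR 2.7.2b, featureCounts 1.6.5 and bcl2fastq 2.20.0.422, and the build GRCm38. The sources used here do not give the annotation release, the strand setting or how multiply mapped reads were handled. Of 55471 identifiers, 55144 were matched to GENCODE M21, which gave symbols, coordinates and exons.

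CPM were computed from the deposited counts with TMM factors (0.963 to 1.03) in edgeR 4.0.16 under R 4.3.3, and RPKM from merged exons. Spread between libraries was tested on the counts over the 14112 genes kept by filterByExpr (minimum count 10). The deviance of an intercept-only negative binomial fit with the trended dispersion (biological coefficient of variation 26.6%) was compared with a chi-square distribution of 3 degrees of freedom, with Benjamini-Hochberg adjustment and a threshold of 0.05. The fit was tested on simulated data. Alternatives were DESeq2 1.42.0 size factors and dispersion outliers, total counts, scaling to homeostatic microglia genes, other filters, the quasi-likelihood variance and each library left out. Removal of trends on exonic length and GC content (loess, span 0.5) was added after the data were seen. Log2 differences between libraries were taken on CPM + 0.5. Neighbouring levels were compared by exact two-sided sign flips over the 4 libraries. Genes of similar pattern were named for Clu and for the genes with a highest-to-lowest ratio of at least 1.5, the 3 nearest each. The 10 genes and all lists were chosen with earlier results of these data known. The reads carry no molecular identifiers and are not independent molecules, so floors and error percentages include counting error alone.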

Additional observations from a re-analysis of the deposited data

How the results depend on the processing

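The number of tested genes called for their spread was 463 in the main analysis and between 388 and 478 with other scalings, other filters or trends on exonic length and GC content removed. It was 0 with the quasi-likelihood variance (658 at an unadjusted p under 0.05), 5 as DESeq2 dispersion outliers, and 106 to 425 with 1 library left out. Without library 3 it was 106. Of the 10 genes, 1 was called in the main analysis, Clu, and 0 with the quasi-likelihood variance, as DESeq2 dispersion outliers, and without library 3, giving 0 to 1 with 1 library left out. Where Clu was called, its adjusted p in edgeR's goodness of fit lay between 7.87e-11 and 0.000363. Sorl1 was called in none of the alternatives, with adjusted p from 0.187 to 1.00. All 90 alternative mean levels of the 10 genes lay within 1 SD of the main value. Of 90 highest-to-lowest ratios 17 were counted as moved, though a single ratio has no SD of its own and no yardstick is given here. Neighbour pairs with 1 direction in every library numbered 6 of 9 in the main analysis, 4 with no length scaling, 5 with the median transcript, 6 with the longest, 9 without library 3 and 6 without any other library. Depth did not limit the 10 genes, whose lowest count was 1445. No paired analysis was possible because there was 1 group.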
